A study of Mus musculus with 2 samples.

Results

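Endothelin and angiotensin signalling genes are here 9 mouse genes for the endothelin and renin-angiotensin systems, chosen by name: a peptide precursor gene of each system (Edn1, Agt), a converting enzyme gene of each (Ece1, Ace), 4 genes for membrane receptors (Ednra, Ednrb, Agtr1a, Agtr2) and Agtrap, whose product binds the type 1 angiotensin receptor. Of the 9, 8 had a probe set with exactly 1 gene symbol, among 19938 genes in all, and each of the 8 had a single probe set. Ednra was not analysed here. The genes were measured in dermal cells cultured from the back skin of newborn C57BL/6 mice (postnatal day 0), with no genetic modification named in the labels. One array held cells given a control small interfering RNA (siRNA) and the other held cells given siRNAs against β-catenin. Both cultures grew for 24 h in medium with 10% serum before transfection and were then exposed to 10 nM siRNA for 48 h. The labels do not say how many pups or cultures stand behind each array, and give no sequence or number of the siRNAs. There was 1 array per group, so no test, standard error or p-value is possible, and "higher" and "lower" below compare 2 single values. The members were proposed with this same contrast known, so their differences are a description.

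Endothelin-1 is a short vasoconstrictor peptide. It is cut from its precursor first by furin-type proteases and then by endothelin-converting enzyme, and it acts on the G protein-coupled receptors A and B. Angiotensinogen, the product of Agt, is cut by renin to angiotensin I and then by angiotensin-converting enzyme (ACE) to angiotensin II. Angiotensin II acts on the type 1 receptor, which drives contraction, growth and matrix synthesis, and on the type 2 receptor, which often opposes the type 1 receptor and is abundant in fetal mesenchyme. In skin, endothelin-1 comes from endothelial cells, keratinocytes and fibroblasts, and in fibroblasts it favours contraction and a myofibroblast state. Receptor B guides melanoblasts from the neural crest.

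The peptide gene Edn1 was lower and the receptor gene Agtr2 was higher on the β-catenin siRNA array, and these were the largest differences among the members. The other angiotensin receptor gene, Agtr1a, and the converting enzyme gene Ace were also higher, both from weak signals. Ece1, Agtrap, Ednrb and Agt differed by less than 1.5-fold, and Agt had equal values. The values are log2 signals normalised by robust multi-array average (RMA). RMA equalises the arrays and leaves background in weak signals, which shrinks their differences. The level filter asks that the higher of the 2 values reaches 5.13, the median of all gene means. It passed 10197 genes and 5 members. Differences of weak genes nevertheless spread more here. The robust SD of the difference, taken from the median absolute deviation, was 0.27 for genes under the filter on both arrays. For genes that passed it was 0.22.

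**Figure D1:**
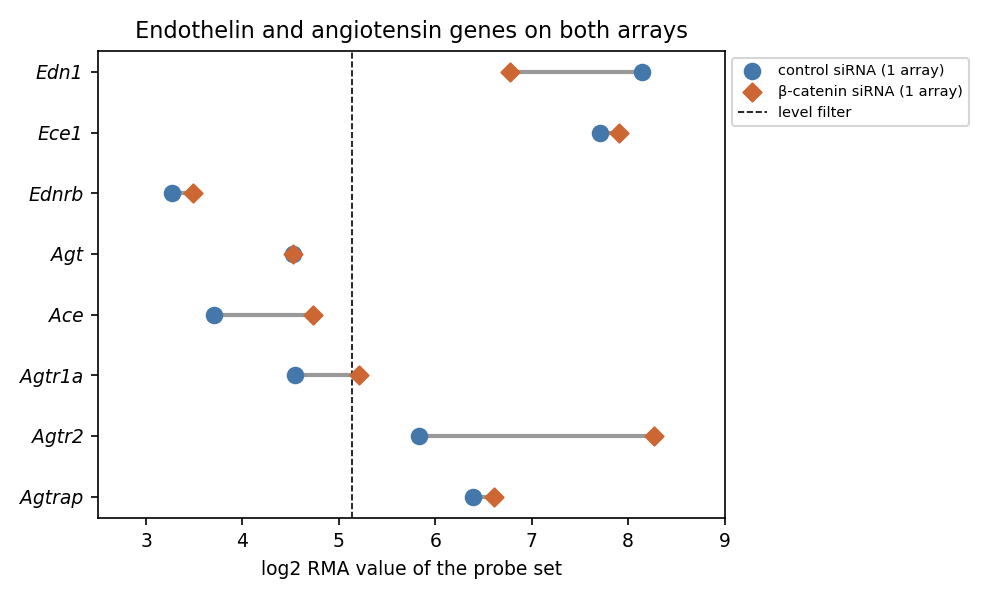
Log2 RMA value (horizontal axis) of the 8 measured members (vertical axis) on the control siRNA array (circles) and the β-catenin siRNA array (diamonds), 1 array each, with the level filter of 5.13 as a dashed line. Edn1 lies lower and Agtr2 higher after β-catenin siRNA, while both symbols of Agt, Ednrb and Ace lie under the filter. Levels of different genes come from different probes and cannot be compared with each other.

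Edn1, which encodes the endothelin-1 precursor, measured 8.14 (log2) in control cells and 6.78 after β-catenin siRNA. The difference was -1.36, which left 38.9% of the control signal. Both values lay above the level filter. Edn1 ranked 6th lowest of the 10197 genes that passed. The target gene Ctnnb1, which encodes β-catenin, stood at 45.2% of control and ranked 20th. The robust SD of the difference among the 500 genes nearest to Edn1 in mean level was 0.22, and 1 of those 500 differed by as much in either direction. That SD mixes array noise with differences between the cultures, so it is a scale and not a replicate error.

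Agtr2, the type 2 angiotensin receptor gene, measured 5.83 (log2) in control cells and 8.27 after β-catenin siRNA. The difference was 2.44, or 5.42-fold. It ranked 9th highest of the genes that passed, and 1 of the 500 genes nearest in level differed by as much. Unlike the other members that were higher by 1.5-fold or more, Agtr2 lay above the filter on both arrays. The RNA came from whole cultures, in which a change in the number of cells that express a gene and a change in RNA per cell cannot be told apart.

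The sequences just upstream of Edn1 and Agtr2 are shown because these 2 genes differed most and in opposite directions. Each is the 250 bases before the annotated start site in RefSeq on GRCm38.p6, read 5′ to 3′ on the strand of the gene. The Edn1 window is chr13:42301226-42301475 and the Agtr2 window is chrX:21484374-21484623, both on the + strand. Capitals mark matches, on either strand, to any of 5 motifs chosen after the values were seen: CTTTG (the core bound by TCF/LEF, the DNA-binding partners of β-catenin), TGANTCA (AP-1), GATAA (GATA factors), ACGTG (hypoxia response core) and TATAA (TATA box).
Edn1: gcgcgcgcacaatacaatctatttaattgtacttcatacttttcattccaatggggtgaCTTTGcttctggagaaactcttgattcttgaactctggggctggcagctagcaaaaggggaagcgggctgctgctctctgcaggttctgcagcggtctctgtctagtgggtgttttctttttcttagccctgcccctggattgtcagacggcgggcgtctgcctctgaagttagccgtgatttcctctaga
Agtr2: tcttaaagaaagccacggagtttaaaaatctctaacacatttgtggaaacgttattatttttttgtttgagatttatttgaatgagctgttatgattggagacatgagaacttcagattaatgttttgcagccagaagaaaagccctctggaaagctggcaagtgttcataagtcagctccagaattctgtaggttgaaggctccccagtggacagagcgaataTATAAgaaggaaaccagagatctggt

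The Edn1 window held 1 match to CTTTG, which began 191 bases upstream of the start site, and no other match. The Agtr2 window held a single match, to TATAA, which began 26 bases upstream. A CTTTG match occurred in 48.6% of all 32851 promoter windows of this length and a TATAA match in 22.8%. The corresponding shares were 6.75% for AP-1, 22.6% for GATA and 16.6% for the hypoxia core, none of which matched in either window. G and C made up 50.4% of the Edn1 window and 38.4% of the Agtr2 window, against a median of 52.4%. Among the other members with a window, CTTTG also matched upstream of Ace, which was higher, and of Ece1, which differed by less than 1.5-fold. It did not match upstream of Agt, Ednrb or Agtrap, each with a single window. Ace and Ece1 have several windows each and so had more chances of a match, and only some of the Ece1 windows held a match. The share of 48.6% is per window and not per gene. A match describes letters and does not show binding, and binding elsewhere was not measured.

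The members for the converting enzyme and receptor B of the endothelin system differed by less than 1.5-fold. Ece1, which encodes endothelin-converting enzyme 1, had log2 values of 7.71 and 7.91 on the control and β-catenin siRNA arrays, a difference of 0.20. Of the 500 genes nearest in level, 141 differed by as much in either direction. Ednrb, the receptor B gene, read 3.27 and 3.49, both under the level filter. Its difference of 0.22 was matched or exceeded in size by 214 of 500 genes of similar level.

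In the angiotensin system, the precursor gene differed least. Agt read 4.52 on both arrays, identical to every digit deposited. Equal values were common among weak signals, where 1028 of the 9741 genes under the filter on both arrays had them, so they do not measure how steady Agt was. Ace, which encodes the enzyme that makes angiotensin II and also degrades bradykinin, read 3.71 in control cells and 4.74 after β-catenin siRNA. The difference of 1.03, or 2.04-fold, was among the 28 genes of 9741 under the filter (0.287%) that were at least 2-fold higher. That pool leaves out weak genes that rose past the filter, so its share is low by construction. Among genes that passed, 0.912% were at least 2-fold higher. Of the 500 genes nearest to Ace in level, 5 differed by as much in either direction. Both Ace values were below the filter, and no detection call was used here, so whether the transcript was present on either array is not known.

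Agtr1a, the main type 1 angiotensin receptor gene of mice, read 4.55 in control cells and 5.21 after β-catenin siRNA. The difference was 0.66, or 1.58-fold. It passed the filter through the β-catenin siRNA value alone, just inside the threshold, whereas Ace, at 4.74, was the nearest member outside it. Of the 500 genes nearest in level, 16 differed by as much in either direction. Agtr1b, a close paralog of Agtr1a, was not analysed here, and probes of such a pair could share signal. Agtrap, whose product binds the type 1 receptor and promotes its internalisation, read 6.39 and 6.61, a difference of 0.22 that 161 of 500 genes of similar level equalled or exceeded. The 2 angiotensin receptor genes were both higher, with differences of 0.66 and 2.44 on the log2 scale.

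**Figure D2:**
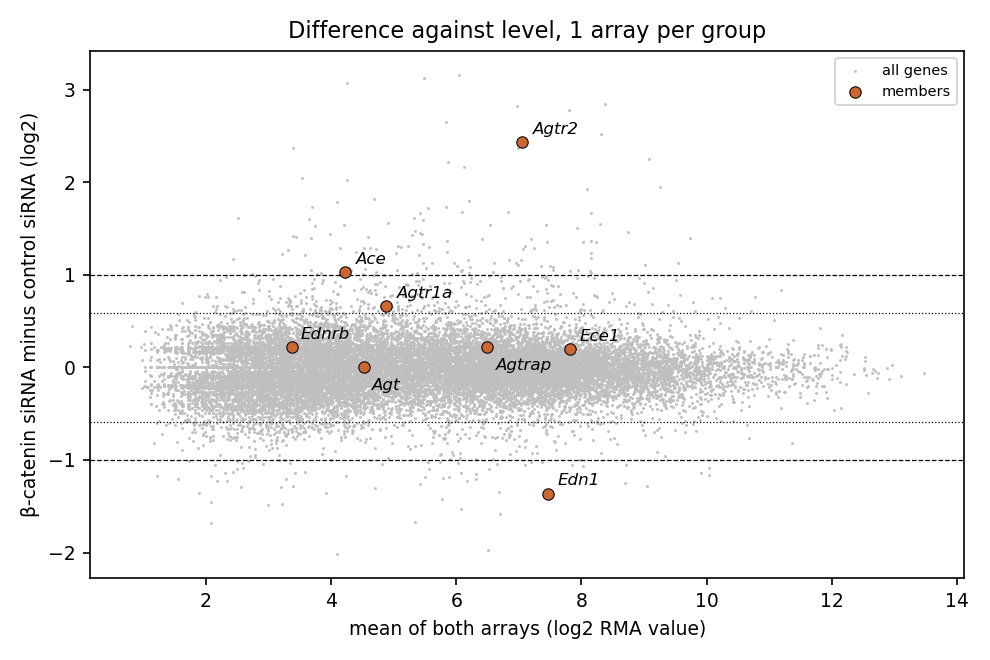
Difference between the β-catenin siRNA and control siRNA arrays (vertical axis, log2) against the mean of both arrays (horizontal axis, log2 RMA value) for 19938 genes in grey and the 8 measured members in orange. Dotted lines mark 1.5-fold and dashed lines 2-fold. Edn1 at -1.36 and Agtr2 at 2.44 lie outside the main cloud of genes, Ace and Agtr1a lie near its upper edge at low level, and Ece1, Agtrap, Ednrb and Agt lie inside it.

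Counted over the 5 members that passed the filter, 2 were at least 1.5-fold higher, where 2.76% of all genes that passed were, and 1 was at least 1.5-fold lower, where 1.84% were. At 2-fold, 1 was higher (0.912% of all genes) and 1 was lower (0.333%). Of the 2 genes higher by 1.5-fold, Agtr1a passed the filter through its β-catenin siRNA value alone. These counts follow from how the members were chosen and carry no further weight. The median difference of the 5 was 0.22, against -0.02 for all genes that passed.

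Among the other genes of the endothelin system, the one past 1.5-fold was a peptidase that degrades peptides. Of 12 genes measured, 5 passed the filter, with a median of 0.05. Of these 5, 1 was at least 1.5-fold higher, where 2.76% of all genes that passed were, and none was that much lower. Mme, which encodes neprilysin, a membrane peptidase that inactivates endothelin-1 and also cleaves angiotensin I, read 5.40 in control cells and 6.53 after β-catenin siRNA, or 2.18-fold higher. Furin, a protease that trims the endothelin precursor, read 8.20 and 8.25. The other endothelin peptide genes, Edn2 (3.86 and 4.09) and Edn3 (4.01 and 3.87), lay under the filter on both arrays. Furin, Edn2 and Edn3 were named after their values were seen.

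Other genes of the renin-angiotensin system stayed within 1.5-fold. Of 21 listed, 15 were measured and 9 passed the filter, with a median of -0.01 and a range from -0.26 to 0.42. Anpep, an aminopeptidase that trims angiotensin III, had the largest difference, 0.42. Prcp, a carboxypeptidase that cleaves angiotensin II, differed by 0.28, and Dpp3, a peptidase that degrades angiotensin peptides, by -0.26. Mas1, the receptor gene for angiotensin 1-7, read 3.21 on both arrays, under the filter.

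**Figure D3:**
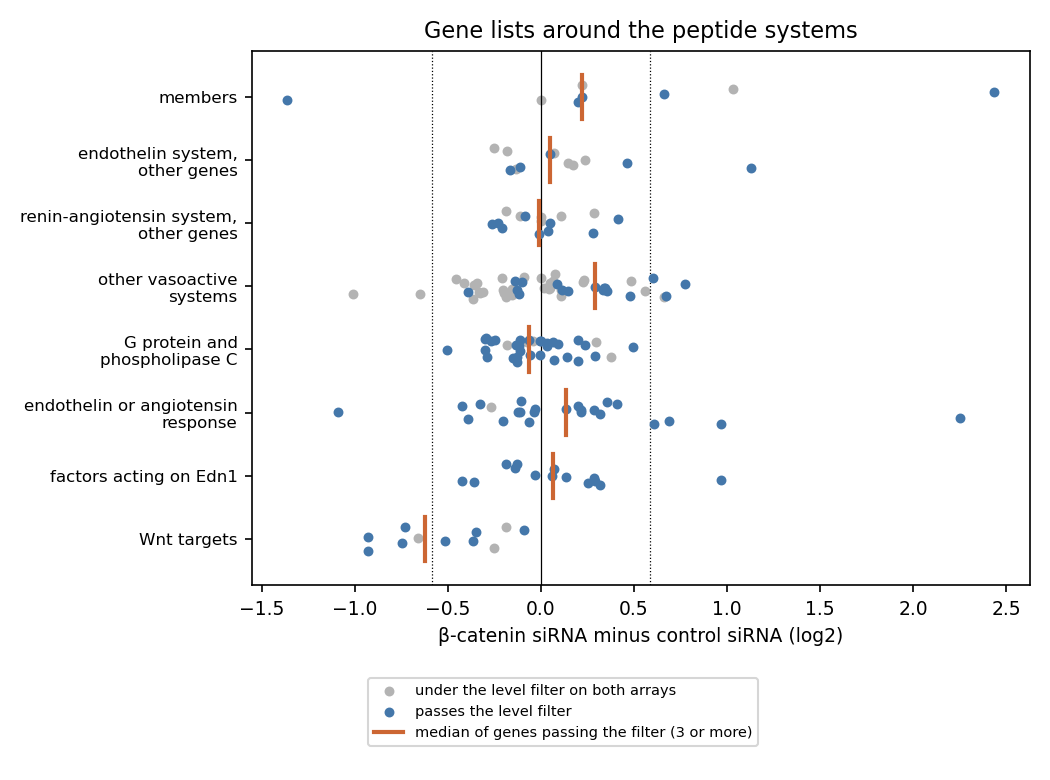
Difference between the β-catenin siRNA and control siRNA arrays (horizontal axis, log2) for each measured gene of the members and 7 further lists (vertical axis). Blue points pass the level filter, grey points lie under it on both arrays, orange bars are medians of the blue points and dotted lines mark 1.5-fold. The members were chosen with this contrast known, so how far out they reach carries no weight. All the other renin-angiotensin genes lie between the dotted lines, and the Wnt targets lie to the left of 0.

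Several receptor genes of other vasoactive mediators were higher. The list of 48 measured genes covers natriuretic, kinin, adrenomedullin, apelin, urotensin, vasopressin, oxytocin, neuropeptide, prostanoid, thrombin and nitric oxide signalling. Of these, 17 passed the filter, 3 were at least 1.5-fold higher, where 2.76% of all genes that passed were, and none was that much lower. Their median was 0.29. Over all 48, without the filter, 4 were higher and 2 lower by 1.5-fold, and the median was 0.03. The 2 lower genes, Tac1 (-1.01) and Gucy1b1 (-0.65), lay under the filter on both arrays. Calcrl, the receptor chain shared by adrenomedullin and calcitonin gene-related peptide, read 5.28 and 6.05, or 1.71-fold higher. Ptgir, the prostacyclin receptor gene, was 1.60-fold higher, from 5.21 to 5.89. F2r, the thrombin receptor gene, was 1.52-fold higher, from 8.99 to 9.59.

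Genes that act downstream of these receptors differed little. Of 30 genes for G proteins, phospholipase C, calcium release, kinases and receptor desensitisation that passed the filter, none was past 1.5-fold, and the median was -0.06. The largest differences were those of Plcb1, a phospholipase C gene, at -0.51, and Prkca, a protein kinase C gene, at 0.49, followed by Ptk2b, a calcium-dependent tyrosine kinase gene, at -0.30. Gnaq and Gna11, the G protein genes most used by the endothelin and type 1 angiotensin receptors, read 8.18 and 9.29 in control cells and 8.18 and 9.23 after β-catenin siRNA. This pair was named after its values were seen.

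Genes known to respond to endothelin-1 or angiotensin II went both ways. Of 23 that passed the filter, 4 were at least 1.5-fold higher and 1 that much lower, with a median of 0.13. Over all genes that passed, 2.76% were at least 1.5-fold higher and 1.84% that much lower. Ccl2, a monocyte chemoattractant, was 4.77-fold higher, from 7.95 to 10.21. Fos, an AP-1 subunit gene, was 1.95-fold higher, Vcam1, a leukocyte adhesion molecule gene, 1.61-fold and Mmp2, a gelatinase gene, 1.52-fold. Cnn1, the contractile protein calponin, was 2.13-fold lower, from 10.59 to 9.50. Acta2 (-0.12) and Ccn2 (-0.11), a myofibroblast actin and a matricellular growth factor named after their values were seen, differed little.

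Genes of factors known to act on Edn1 went both ways. Of 14 measured, all of which passed the filter, 8 were higher and 6 lower by some amount. Fos alone was at least 1.5-fold higher, where 2.76% of all genes that passed were, and none was that much lower. The median was 0.06. Gata2, a factor of Edn1 in endothelial cells, differed by -0.43, and Hif1a, the hypoxia-inducible factor, by 0.14 at the transcript level. These genes were named after their values were seen. Over all genes that passed the filter, 1.84% were at least 1.5-fold lower. Among 8 Wnt target genes that passed the filter, listed to check the knockdown, 4 were at least 1.5-fold lower: Nkd2, Nkd1, Axin2 and Apcdd1, with differences of -0.93, -0.93, -0.75 and -0.73. Edn1 differed by more than any of these 4 single values. It was proposed with this contrast known, so that comparison carries no weight. The knockdown itself and the Wnt target list were known from the same 2 arrays before the lists were written.

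The genes with values nearest to those of Edn1 over the 2 arrays, by Euclidean distance, were Dmpk, Ankrd1, Bmper, Hspb6 and Slc16a3, at distances from 0.27 to 0.43 log2 units and with differences from -1.02 to -0.79. Ankrd1 encodes a cardiac ankyrin repeat protein, Bmper a secreted regulator of bone morphogenetic proteins and Slc16a3 a lactate exporter. None of the 5 differed by as much as Edn1. Nearest to Agtr2 were Steap4 (0.10), Cxcl10 (0.29), Irf7 (0.62), Sfrp2 (0.77) and Nrk (0.80), with differences from 1.31 to 2.82. Steap4 is a metalloreductase gene, Cxcl10 and Irf7 are induced by interferon and Sfrp2 encodes a secreted Wnt modulator. With 2 arrays, a shared pattern is no more than a similar pair of values.

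Markers of the cell types that the cultures could hold were read on the same arrays. All 12 fibroblast markers measured passed the filter, among them Col1a1 (12.77 and 12.71) and Pdgfra (9.83 and 10.59), and 6 were higher and 6 lower by some amount, with a median of 0.08. Those at least 1.5-fold higher were Lum (1.29), Dcn (0.84) and Pdgfra (0.75), given as log2 differences, and none was that much lower, Twist1 (-0.34) being the lowest. Over all genes that passed, 2.76% were at least 1.5-fold higher. Of 15 endothelial markers, 12 lay under the filter on both arrays, including Pecam1 (3.44 and 3.64) and Cdh5 (4.30 and 4.30). The 3 that passed were Kdr (-0.51), Flt1 (0.53) and Egfl7 (-0.16). All 8 measured Schwann cell and neural crest markers were under the filter, as Ednrb was, and 8 of 11 melanocyte markers were.

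Markers of keratinocytes, contractile cells and the interferon response, and 1 skeletal muscle marker, differed between the arrays as well. Over all genes that passed the filter, 2.76% were at least 1.5-fold higher and 1.84% that much lower. Of 17 keratinocyte markers, 10 passed the filter, 4 were at least 1.5-fold higher and 1, Itga6, that much lower. The summed linear signal of all 17 was 138% of control, opposite in direction to Edn1. Krt5 (7.64 and 8.65) and Krt14 (8.03 and 8.65) were the brightest of the list and weigh most in that sum. Over all 17, without the filter, 4 were higher and 2 lower by 1.5-fold, and the median difference was 0.20. Of 15 pericyte and smooth muscle markers, 10 passed, 8 of these were lower by some amount and 3 by at least 1.5-fold (Cnn1, Myh11 and Lmod1). The summed signal of all 15 was 84.1% of control. Of 11 skeletal muscle markers, 10 lay under the filter on both arrays. The one that passed, the skeletal actin gene Acta1, was 2.38-fold lower, from 9.32 to 8.07, in the same direction as Edn1. Acta1 held most of the summed signal of the list, which was 55.7% of control. The median difference over all 11 was -0.12. Of 18 interferon-stimulated genes measured, 13 passed. Of these 13, 12 were at least 2-fold higher, where 0.912% of all genes that passed were, and none was lower. Ifit1, Ifit3, Usp18, Rtp4 and Xaf1 passed through the β-catenin siRNA value alone. The summed signal of the 18 was 285% of control, in the same direction as Agtr2. The part of these shifts in the differences of Edn1 and Agtr2 was not tested.

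**Figure D4:**
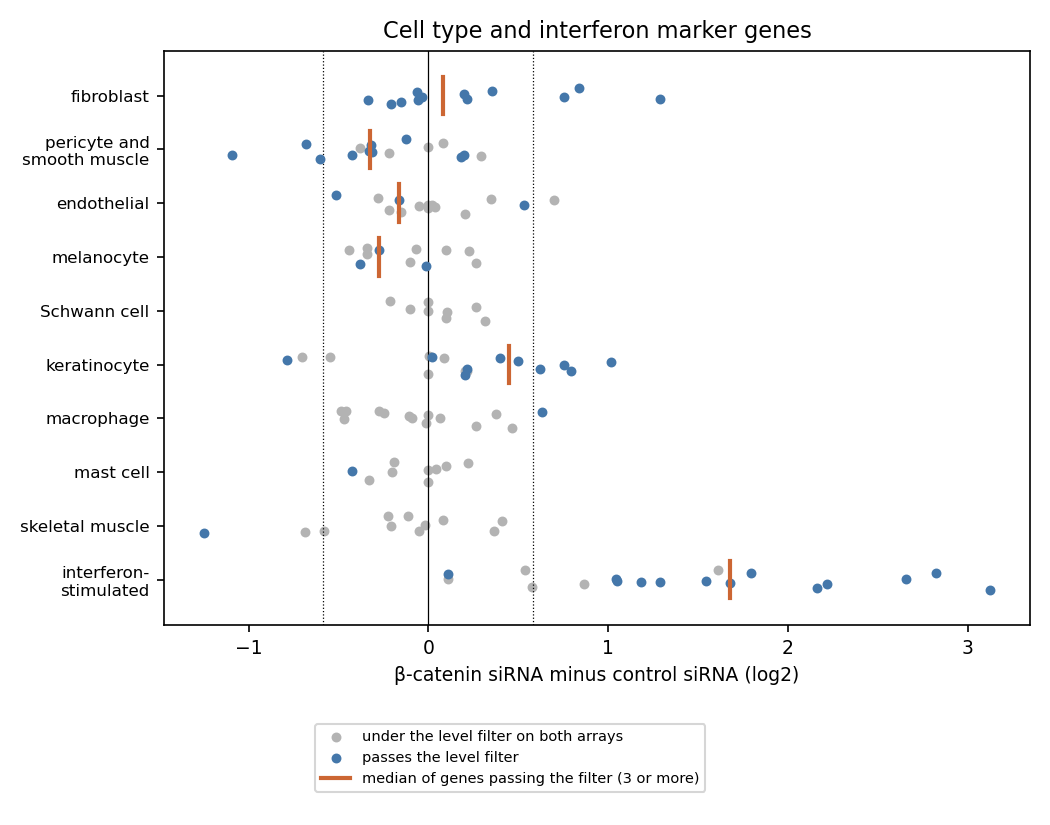
Difference between the β-catenin siRNA and control siRNA arrays (horizontal axis, log2) for marker genes of 9 cell types and for interferon-stimulated genes (vertical axis), with blue points passing the level filter, grey points under it on both arrays, orange bars for medians of at least 3 blue points and dotted lines at 1.5-fold. Interferon-stimulated genes lie to the right with a median of 1.68, pericyte and smooth muscle markers to the left with a median of -0.32, and most endothelial markers are grey.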

How the data were processed

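The deposited table holds 1 log2 value per probe set and array, made by the authors with RMA, per the submitters' processing notes. The RMA version, filters and genome build were not given in the sources used here. The scale was judged to be log2 from the range of 0.485 to 13.5. The platform annotation gave exactly 1 symbol for 21789 of 28944 probe sets, and current symbols were taken from RefSeq (GRCm38.p6) by gene identifier for 21698. Where a gene had several probe sets, the brightest by mean of both arrays was taken. The control value was subtracted from the β-catenin siRNA value. Of 300 listed gene names, 279 matched a probe set. Fold sizes of 1.5 and 2 were the only criteria. Robust SD is 1.4826 times the median absolute deviation. Named genes were Ctnnb1, the members, genes of each wider list past 1.5-fold that passed the filter (otherwise the 3 largest), and the 5 nearest to Edn1 and to Agtr2. Others were chosen after their values were seen. Some are marked so, while Mas1, Tac1, Gucy1b1 and the single cell type and interferon markers are not. The members and lists were chosen with earlier results of these data known. Fold calling and probe set choice were tested on simulated data. Alternatives were 2 centrings, other probe set choices and other level filters. Python 3.11.15, pandas 2.3.3 and statsmodels 0.14.6 were used.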

Additional observations from a re-analysis of the deposited data

How the results depend on the processing

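All 8 member differences kept their sign, or stayed at 0 or above for Agt, and moved by less than the pooled SD of 0.16 between probe sets of the same gene under median centring, lowess centring and other probe set choices. Edn1 ranged from -1.36 to -1.34 and Agtr2 from 2.44 to 2.46. Since each member had a single probe set, the choice of probe set could not change its value. The offsets removed were -0.023 for median centring and from -0.049 to -0.012 for lowess centring, so centring could not move a member by 0.16 either. The level filter mattered more. Without it, 2 members rather than 1 were at least 2-fold higher, since Ace entered, and with both values required above the filter level, 1 rather than 2 was at least 1.5-fold higher, since Agtr1a left. The median of other vasoactive genes was 0.030 without the filter, and 2 of them rather than none were at least 1.5-fold lower. Over all genes, the counts without the filter were 444 higher and 469 lower by 1.5-fold, and 64 lower by 2-fold. With all probe sets as separate features, the 1.5-fold count rose to 429 higher and the 2-fold count to 182 higher, and with both values above the filter level 56 were at least 2-fold higher. With 1 array per group, leaving out a replicate was not possible. No paired analysis was possible because each group has 1 array. The number of arrays limits the precision of every difference.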
